A study of Homo sapiens with 4 samples.

Results

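The transcripts of the mitochondrial genome were examined in RNA-seq of cells labelled as HepG2, a human cell line derived from a liver tumour. They were taken as the rows of the deposited counts whose gene name begins with MT-, and comprised 37 of 59050 genes in all: 13 mRNAs, 2 rRNAs and 22 tRNAs. There were 2 libraries of untreated cells (0 h) and 2 of cells given doxorubicin, a DNA-damaging drug used here to raise p53, at 1 µg/ml for 24 h. All were prepared from total RNA by poly(A) selection on poly-T beads and random-primed cDNA synthesis. The groups differ in the drug as a whole and in time (0 h against 24 h), and these cannot be told apart here. No library in which p53 alone was altered was used. The titles mark the untreated libraries as nop53 and the treated ones as p53, while the treatment label of the treated ones reads p53-miRNA, and the titles were used for grouping.

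The libraries held between 27572740 and 36272180 counts. Of 10 genes typical of liver cells, ALB had 0 to 3 counts in any library. The 10 summed to between 0.965 and 5.92 CPM (counts scaled to the library total in the usual way), so the defining liver markers were close to 0. The name HepG2 comes from the labels, these markers do not bear it out, and the identity of the cells was not tested. Untreated replicate 2 stood apart. Among the 17479 genes that passed the filter on low counts, it was either above or below all of the other 3 in 81.6%. Results that rest on it are therefore given with and without it.

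Mitochondrial DNA is a small circle in which both strands are copied into long precursor RNAs, which are cut at the tRNAs that lie between the other genes. The mRNAs encode core subunits of complexes I, III and IV of the respiratory chain and of complex V, the ATP synthase, and the rRNAs and tRNAs serve the ribosomes that translate them inside the organelle. All other proteins that copy, transcribe, process and translate this genome, and the remaining subunits of these complexes, are encoded in the nucleus.

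The genes are placed here on hg38, where the mitochondrial chromosome has 16569 bases, and all 37 names were found in the reference annotation. Poly(A) addition is part of the coding capacity of several of these mRNAs. By their annotated ends, 6 of 13 finish before their stop codon is complete, and the tail supplies the missing bases. The last 24 bases of these 6 genes are shown for that reason (plus strand), with the remnant of the stop codon in capitals.
MT-ND1 (chrM:4239-4262): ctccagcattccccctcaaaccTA
MT-ND2 (chrM:5488-5511): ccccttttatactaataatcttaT
MT-CO3 (chrM:9967-9990): tctccatctattgatgagggtctT
MT-ND3 (chrM:10381-10404): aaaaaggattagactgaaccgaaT
MT-ND4 (chrM:12114-12137): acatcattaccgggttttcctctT
MT-CYB (chrM:15864-15887): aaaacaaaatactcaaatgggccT

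The other 7 mRNAs end in a whole codon by the annotation. For MT-ATP6 that codon includes base 9207, which is also the first base of MT-CO3, so its count among the 7 rests on the annotated end. MT-ND6 is the only mRNA on the minus strand and is known to carry little or no poly(A) tail, and its end is shown beside that of MT-CO1, the plus-strand mRNA whose last codon is also not a standard stop. The last codon is in capitals.
MT-ND6 (chrM:14149-14172, minus strand): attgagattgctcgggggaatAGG
MT-CO1 (chrM:7422-7445, plus strand): gaacccgtatacataaaatctAGA

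A pair of mRNAs each hold overlapping reading frames, so reads over the shared bases belong to both genes. MT-ATP8 and MT-ATP6 share 46 bases (chrM:8527-8572), and MT-ND4L and MT-ND4 share 7 (chrM:10760-10766). They are printed because the counts of these 4 genes depend on how such reads were assigned, which is not given in the sources used here. The shared bases are in capitals, with 10 bases on each side (plus strand).
MT-ATP8 and MT-ATP6 (chrM:8517-8582): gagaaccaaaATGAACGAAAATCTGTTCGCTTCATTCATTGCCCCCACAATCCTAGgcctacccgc
MT-ND4L and MT-ND4 (chrM:10750-10776): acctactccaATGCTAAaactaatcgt

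The share of each library on the mitochondrial genome was the first comparison. The 37 genes took 5.52% of all counts in untreated replicate 1 and 5.75% in untreated replicate 2. Their share was 4.94% and 5.21% in the doxorubicin replicates. Both treated libraries were below both untreated ones, with a difference (doxorubicin minus untreated) of -0.564 percentage points between the group means (5.64% ± 0.162 against 5.07% ± 0.190, SD, n = 2 each). The exact permutation test (two-sided) gave p = 0.333, which is the smallest p that 2 libraries against 2 can give. The 95% Wilson intervals of the 4 shares, which cover counting error only, did not overlap, so counting error was smaller than the spread between replicates. In bulk RNA, fewer cells rich in these transcripts and less of them per cell cannot be told apart.

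**Figure D1:**
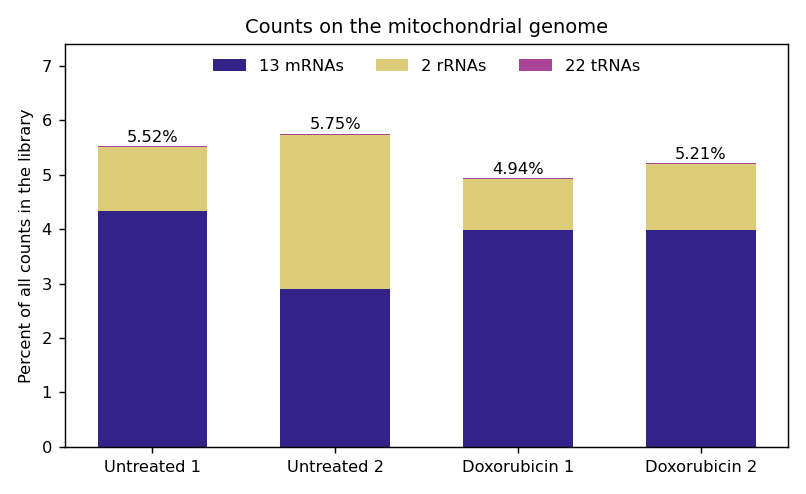
The bars give the percent of all counts of each of the 4 libraries that fell on the 13 mRNAs, 2 rRNAs and 22 tRNAs of the mitochondrial genome. The totals lie between 4.94% and 5.75%, while the rRNA part is 2.83% in untreated replicate 2 and at most 1.22% in the other 3 libraries.

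The make-up of that share differed more between the untreated libraries than between the groups. The mRNAs held 78.5% and 50.3% of the mitochondrial counts in untreated replicates 1 and 2, and 80.5% and 76.3% in the doxorubicin replicates. The rRNAs held 21.3%, 49.2%, 19.1% and 23.4% in the same order. Untreated replicate 2 was the only library in which rRNA came close to mRNA, with 0.979 rRNA counts for each mRNA count against 0.237 to 0.306 in the other 3. The group means differed by 14.1 percentage points for the mRNAs and by -14.0 for the rRNAs (exact permutation test, p = 0.667 for each), and the groups overlapped.

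Counted on the mRNAs alone, the share of the library was 4.34% and 2.89% in the untreated libraries and 3.98% in each of the treated ones. The treated libraries lay between the untreated ones, and the difference of the means was 0.363 percentage points toward doxorubicin (exact permutation test, p = 1). The lower total in treated cells was thus seen with the rRNAs counted and not without them. The difference became 0.339 percentage points toward doxorubicin once rRNA and tRNA rows were left out of both numerator and denominator. Without untreated replicate 2, the total was 5.52% against 4.94% and 5.21%, and the mRNA share 4.34% against 3.98% and 3.98%, both lower in the treated libraries.

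Per kilobase of gene length, MT-CO2 had the highest level of the mRNAs, with a mean of 6726 CPM per kb over the 4 libraries. It was followed by MT-CO1 (5686), MT-ND4 (5119), MT-ATP6 (4084) and MT-CO3 (3085). These leading genes were not separated from their neighbours: MT-CO2 ranged from 6066 to 7504 CPM per kb over the libraries, MT-CO1 from 4382 to 6291 and MT-ND4 from 2750.4 to 6071. A middle group of 6 mRNAs from MT-ND6 to MT-ND5 had means between 1708 and 2496 CPM per kb. MT-ND3 (923) and MT-ATP8 (748) were lowest, and their ranges of 499 to 1167 and 442 to 919 CPM per kb also overlapped.

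**Figure D2:**
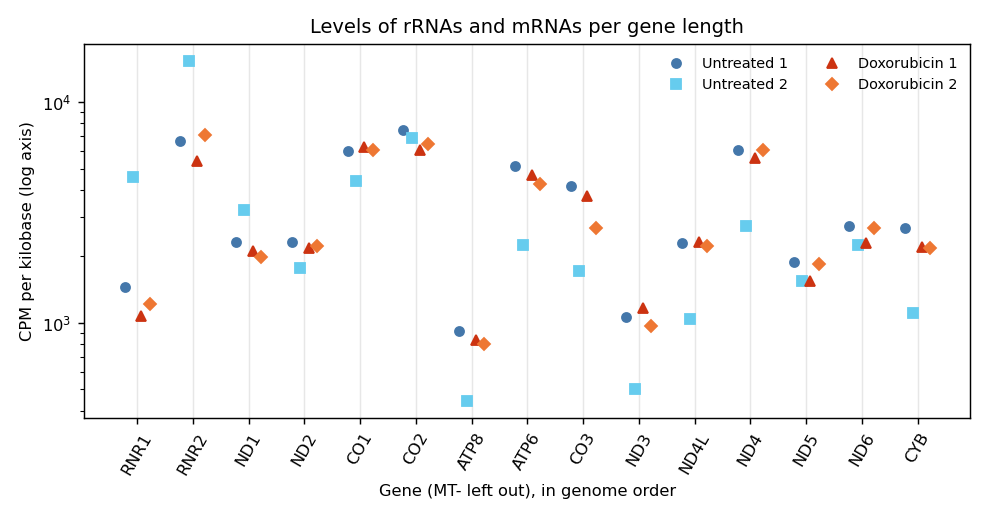
Each point is the level of a gene in a single library, in CPM per kilobase of gene length on a log axis, with the 15 rRNA and mRNA genes in genome order. Untreated replicate 2 (light blue squares) is the highest point for MT-RNR1 and MT-RNR2, at 4585 and 15358 CPM per kb, and the lowest for 10 of 13 mRNAs.

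Untreated replicate 2 departed from untreated replicate 1 in an order that followed the genome in part. Its log2 ratio to untreated replicate 1 was 1.66 for MT-RNR1, 1.21 for MT-RNR2 and 0.48 for MT-ND1, which are the first rRNAs and mRNA on the plus strand. The ratio was -0.39 for MT-ND2, -0.46 for MT-CO1 and -0.13 for MT-CO2. From MT-ATP8 to MT-ND4 it lay between -1.28 and -1.06 for all 6 genes. MT-ND5 (-0.28) and MT-ND6 (-0.29) were near the level of untreated replicate 1 again, and MT-CYB, the last mRNA, was at -1.27. The 6 mRNAs annotated without a whole stop codon spanned -1.28 to 0.48. The other 7, MT-ATP6 among them, spanned -1.19 to -0.13, so the ranges overlapped.

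Across the 12 plus-strand mRNAs, the log2 ratio of untreated replicate 2 to untreated replicate 1 had a Pearson correlation of -0.61 and a Spearman correlation of -0.57 with the position of the gene's midpoint. For the doxorubicin libraries the Pearson values were -0.28 and -0.05. These correlations run across genes of 1 library pair that share a precursor RNA and a common denominator, and they are descriptions with no test. Over the 14 plus-strand rRNAs and mRNAs, the log2 ratios spanned 2.94 in untreated replicate 2, against 0.57 and 0.72 in doxorubicin replicates 1 and 2.

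**Figure D3:**
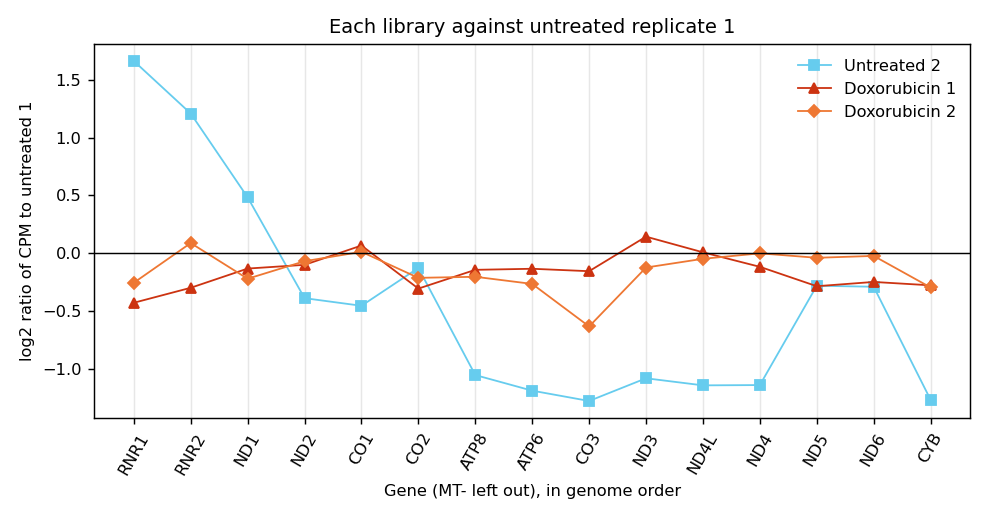
The log2 ratio of CPM in 3 libraries to that in untreated replicate 1 is drawn for 15 genes in genome order. Untreated replicate 2 runs from 1.66 at MT-RNR1 to -1.27 at MT-CYB, and the doxorubicin libraries stay between -0.63 and 0.14.

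Untreated replicate 1 was closer to the treated libraries than to its own replicate. The median size of the log2 difference over the 13 mRNAs was 1.06 between the untreated libraries, and 0.143 and 0.12 between untreated replicate 1 and the doxorubicin libraries. Between the doxorubicin libraries it was 0.0931. Untreated replicate 2 was below the other 3 libraries in 10 of 13 mRNAs and above them in 1, MT-ND1, against 45% below and 36.6% above over all genes tested. It was above them in both rRNAs and in all 14 tRNAs tested, several of which had few counts. The filter on low counts kept 14 of 22 tRNAs, and its choice depended in part on the level of this library. In the tRNAs that it removed, untreated replicate 2 lay within or below the range of the other 3.

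In the comparison of doxorubicin-treated with untreated cells, no mitochondrial transcript passed the test. With all 4 libraries, the quasi-likelihood test of edgeR was fitted over 17479 genes, of which 29 were mitochondrial (13 mRNAs, 2 rRNAs and 14 tRNAs). A call required a Benjamini-Hochberg adjusted p under 0.05 and a change of 1 or more on the log2 scale. Of the 29, 0 were called and 0 had an adjusted p under the threshold, where the background was 0% of all genes tested. At an unadjusted p under 0.05 there was 1 of 29, MT-RNR1, against 4.39% of all genes tested. DESeq2 called 0 of the 29 and 0.515% of all genes. The 13 mRNAs had a median log2 fold change of 0.05, with 7 above 0 and 6 below, beside a median of 0.01 and 50.76% above 0 over all genes tested. Scaling by library size alone in place of TMM factors moved the median of all genes to 0.17 and that of the mRNAs to 0.21, with 10 of 13 above 0.

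Counted from the CPM values, the groups did not overlap for 3 of 13 mRNAs: MT-CO1 was higher in both treated libraries, and MT-ND1 and MT-CO2 were lower. The background of non-overlapping genes was 41.8%, of which 30.3% were higher and 11.5% lower in treated cells. Both treated libraries were below untreated replicate 1 in 10 of 13 mRNAs, against 24.7% of all genes, and above it in 1 (MT-CO1), against 53.1%.

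Complex I, which takes electrons from NADH, has 7 mitochondrial subunits, and the first of them on the genome is MT-ND1 (chrM:3307-4262). Its level was 2216 and 3098 CPM in untreated replicates 1 and 2, and 2020.1 and 1900.4 CPM in doxorubicin replicates 1 and 2. Both treated libraries were below both untreated ones, with untreated replicate 2 highest. The log2 fold change was -0.59 ± 0.28 (SE, adjusted p = 0.773, edgeR), and -0.32 ± 0.21 (adjusted p = 0.408) without untreated replicate 2. MT-ND2 (chrM:4470-5511) had 2429.7, 1854, 2265 and 2315 CPM in the same order, so the treated libraries lay between the untreated ones. Its log2 fold change was -0.06 ± 0.27 with all libraries and -0.23 ± 0.21 without untreated replicate 2.

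MT-ND3, MT-ND4L and MT-ND4 lie together on the plus strand (chrM:10059-12137) and shared a pattern. MT-ND4 had 8366 CPM in untreated replicate 1, 3790.0 in untreated replicate 2, and 7707 and 8356 in the doxorubicin libraries. MT-ND4L had 683, 309, 687 and 660.4 CPM, and MT-ND3 had 366, 173, 404 and 336 CPM. Untreated replicate 2 was at about the same low fraction of the other libraries in all 3 genes, and the remaining libraries were close to each other. Their log2 fold changes were 0.24 ± 0.41, 0.28 ± 0.43 and 0.30 ± 0.43 with all libraries (adjusted p = 0.865, 0.845 and 0.838, edgeR). Without untreated replicate 2 they were -0.21, -0.17 and -0.13. The level of MT-ND4 per kilobase was 2.64 times that of MT-ND4L in both untreated libraries, and 2.42 and 2.73 times in the treated ones, although they are read from a common mRNA.

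MT-ND5 (chrM:12337-14148) had 3424 and 2815 CPM in the untreated libraries and 2807 and 3329.8 CPM in the treated ones. MT-ND6 (chrM:14149-14673), which lies end to end with it on the opposite strand, had 1439, 1176, 1211 and 1415 CPM. In both genes untreated replicate 1 and doxorubicin replicate 2 were high and the other libraries low, so the groups overlapped. The log2 fold changes were -0.18 ± 0.26 and -0.15 ± 0.27 (adjusted p = 0.835 and 0.867, edgeR). MT-ND6 held 3.32%, 4.07%, 3.04% and 3.56% of the mRNA counts in the order of libraries used above, a difference of the group means of -0.392 percentage points (exact permutation test, p = 0.667). Whether counting used the strand is not given in the sources used here, so reads of the 2 strands over MT-ND6 cannot be told apart.

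MT-CYB (chrM:14747-15887) encodes cytochrome b, the mitochondrial subunit of complex III, which passes electrons to cytochrome c. It had 3062 CPM in untreated replicate 1, 1269.6 in untreated replicate 2, and 2524 and 2492 in the doxorubicin libraries. The treated libraries were close to each other and lay between the untreated ones. The log2 fold change was 0.05 ± 0.45 (adjusted p = 0.975, edgeR) with all libraries and -0.43 ± 0.21 (adjusted p = 0.216) without untreated replicate 2.

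Complex IV, cytochrome c oxidase, has 3 mitochondrial subunits that form its catalytic core. MT-CO1 (chrM:5904-7445) had 9268 and 6757 CPM in the untreated libraries and 9701 and 9342 CPM in the treated ones, the highest being doxorubicin replicate 1. The treated libraries were above both untreated ones, but the gap to untreated replicate 1 was small, and the log2 fold change was 0.09 ± 0.27 (adjusted p = 0.921, edgeR), with -0.11 ± 0.20 (adjusted p = 0.833) when untreated replicate 2 was left out. MT-CO2 (chrM:7586-8269) had 5133, 4696, 4149 and 4425 CPM, with both treated libraries lowest. It is the mRNA in which the untreated libraries were closest, and its log2 fold change was -0.36 ± 0.24 (adjusted p = 0.773), or -0.41 ± 0.20 (adjusted p = 0.253) without untreated replicate 2. MT-CO3 (chrM:9207-9990) had 3276, 1349, 2939 and 2109.6 CPM and was the mRNA in which the treated libraries were farthest apart. Its log2 fold change was -0.02 ± 0.48 with all libraries and -0.52 ± 0.21 (adjusted p = 0.112) without untreated replicate 2.

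Complex V, the ATP synthase, takes 2 subunits of its membrane part from the overlapping genes MT-ATP8 (chrM:8366-8572) and MT-ATP6 (chrM:8527-9207). MT-ATP6 had 3499, 1533, 3186 and 2909 CPM and MT-ATP8 had 190.3, 91.5, 172 and 165 CPM in the order used above. In both genes untreated replicate 2 was far below the other 3, and the treated libraries were below untreated replicate 1. The log2 fold changes were 0.12 ± 0.43 and 0.10 ± 0.43 with all libraries (adjusted p = 0.937 and 0.948, edgeR), and -0.34 and -0.32 without untreated replicate 2. The level of MT-ATP6 per kilobase was 5.09 to 5.63 times that of MT-ATP8 over the 4 libraries.

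The direction for the mRNAs as a group depended on which untreated library was kept. Without untreated replicate 2, all 13 mRNAs had a log2 fold change below 0, with a median of -0.31 beside 0.05 over the 18356 genes tested. Of them 0 were called, against a background of 4.44% (3.88% higher and 0.556% lower in treated cells), and 0 had an adjusted p under 0.05 (edgeR), against 6.34%. At an unadjusted p under 0.05 there were 3 of 13 (MT-CO3, MT-CYB and MT-CO2), against 19.1% of all genes. The lone untreated library is assumed in this fit to vary as the treated ones do. With library size alone, 11 of 13 remained below 0 (median -0.16, beside 0.20 over all genes), and MT-CO1 and MT-ND3 turned to 0.04 and 0.02.

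Without untreated replicate 1 the picture was the opposite. This fit also has a lone untreated library, which is assumed to vary as the treated ones do. Its SEs and p-values therefore rest on the spread of the treated pair alone. The common dispersion was 0.0227 in this fit, against 0.24 with all libraries. Its calls cannot tell an effect of the drug from the departure of untreated replicate 2. The median of the mRNAs was 0.80, with 11 of 13 above 0, and MT-ND3 (1.02 ± 0.24, adjusted p = 6.19e-05) and MT-ND4L (1.04 ± 0.23, adjusted p = 3.43e-05, edgeR) were called as higher in treated cells, where 44.4% of all genes were called (21.2% higher and 23.2% lower). MT-RNR1 (-2.09) and MT-RNR2 (-1.39) were called as lower. Of the mRNAs, 8 had an adjusted p under 0.05 (58% of all genes), MT-ND1 being lower and the other 7 higher. The pooled SD between replicates over the mRNAs had a median of 0.54 on the log2 scale, made up of 0.75 in untreated and 0.10 in treated cells.

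**Figure D4:**
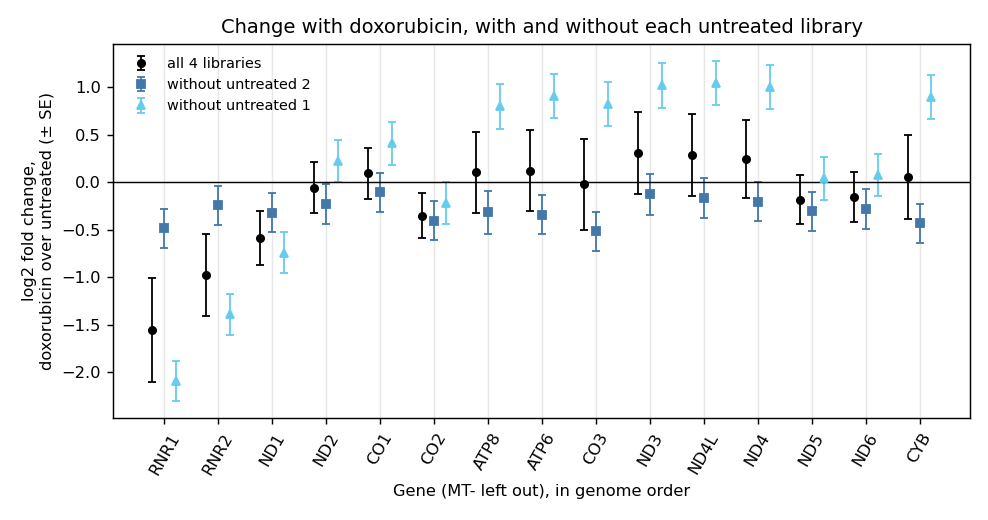
Points are log2 fold changes of doxorubicin over untreated from edgeR with bars of ± 1 SE, for fits with all 4 libraries, without untreated replicate 2 and without untreated replicate 1. From MT-ATP8 to MT-ND4 the fit without untreated replicate 1 lies between 0.80 and 1.04 and that without untreated replicate 2 between -0.52 and -0.13.

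The rRNAs form the core of the small (12S, MT-RNR1, chrM:648-1601) and large (16S, MT-RNR2, chrM:1671-3229) subunit of the mitochondrial ribosome. MT-RNR1 had 1381 and 4374 CPM in the untreated libraries, and 1025 and 1156 CPM in the treated ones. MT-RNR2 had 10359, 23944, 8414 and 11005 CPM. The library of untreated replicate 2 was highest by far for both, and the groups did not overlap for MT-RNR1 but did for MT-RNR2. With all libraries, MT-RNR1 had a log2 fold change of -1.56 ± 0.55 (unadjusted p = 0.0328, adjusted p = 0.773) and MT-RNR2 of -0.98 ± 0.43 (adjusted p = 0.773, edgeR). The values were -0.49 ± 0.21 (adjusted p = 0.153) and -0.24 ± 0.20 (adjusted p = 0.550) without untreated replicate 2.

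The balance of the rRNAs was compared next, with MT-RNR2 at 4.59 and 3.35 times the level of MT-RNR1 per kilobase in untreated cells, and at 5.02 and 5.83 times in treated cells. The groups did not overlap (exact permutation test, p = 0.333, the smallest possible). The treated libraries were also above untreated replicate 1 alone. Nuclear RNAs that normally lack a poly(A) tail also varied: the sum of 6 of them was 76.9 and 149 CPM in untreated replicates 1 and 2, and 63.4 and 107 CPM in doxorubicin replicates 1 and 2. RN7SL1 made up most of it, at 58.6, 135, 52.6 and 91.2 CPM. RMRP did not follow it, at 18.2, 14.2, 10.8 and 15.5 CPM, and was highest in untreated replicate 1. TERC had at most 4 counts, and RN7SK, RN7SL2 and RPPH1 were at 0 in every library. The part of these nuclear RNAs in the rRNA result was not tested.

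The tRNAs were scarce, at 0.0146%, 0.0293%, 0.0180% and 0.0164% of the library in the order used above, and 17 of 22 had under 45 counts in every library. The 3 with the highest mean level were MT-TN, MT-TC and MT-TP, the tRNAs for asparagine, cysteine and proline, which held 90.3% to 92.3% of the tRNA counts. They are printed because nearly the whole tRNA signal came from them. All lie on the minus strand, MT-TN and MT-TC on either side of the light-strand replication origin and MT-TP beside the control region.
MT-TN (chrM:5657-5729, minus strand): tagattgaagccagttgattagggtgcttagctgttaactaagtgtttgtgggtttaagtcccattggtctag
MT-TC (chrM:5761-5826, minus strand): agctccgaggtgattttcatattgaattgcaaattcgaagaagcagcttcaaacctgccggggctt
MT-TP (chrM:15956-16023, minus strand): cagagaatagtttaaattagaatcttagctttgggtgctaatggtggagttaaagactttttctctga

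MT-TN had 51.9, 102, 57.6 and 51.9 CPM, MT-TC had 46.8, 120, 73.6 and 63.8 CPM, and MT-TP had 33.3, 43.0, 34.9 and 33.6 CPM in untreated replicates 1 and 2 and doxorubicin replicates 1 and 2. Untreated replicate 2 was highest for each, and for MT-TC the treated libraries were also above untreated replicate 1. Their log2 fold changes were -0.64, -0.43 and -0.31 with all libraries (adjusted p = 0.773, 0.816 and 0.813, edgeR), and -0.07, 0.41 and -0.11 without untreated replicate 2. Next to MT-TN on the same strand, MT-TA (chrM:5587-5655) had 1, 4, 1 and 6 counts where MT-TN had 1884, 2950, 1977 and 1431. Minus-strand tRNAs, 8 of 22, held 5005, 7940, 5892 and 4267 counts, and the 14 plus-strand tRNAs held 282, 533, 286 and 262.

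Of the 14 tRNAs tested, 12 had a log2 fold change below 0 and 2 above, with a median of -0.45, where 50.76% of all genes tested were above 0. The groups did not overlap for 3, MT-TL1, MT-TY and MT-TE, all lower in treated cells, against 11.5% of all genes. MT-TL1, the tRNA that follows the rRNAs on the plus strand, had 3.86, 9.45, 3.47 and 3.16 CPM and a log2 fold change of -1.15 ± 0.63 (adjusted p = 0.773, edgeR). The remaining 8 tRNAs did not pass the filter, and 3 counts correspond to 0.0827 to 0.109 CPM in these libraries. With no filter, 14 of 22 tRNAs were below 0 and 8 above (median -0.28), where 44.04% of all genes were above 0. The median over 15 tested tRNAs was -0.07 without untreated replicate 2, with 7 above 0.

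The nuclear genome holds copies of mitochondrial genes, and reads from them and from the mitochondrion can be exchanged in counting. Of 407 such rows, 336 had 0 counts in every library, and the 3 highest, MTATP6P1, MTCO1P12 and MTND2P28, held 98.26% of all counts on these rows. MTATP6P1 had 412, 183, 361 and 329.6 CPM, that is 11.8%, 11.9%, 11.3% and 11.3% of MT-ATP6 in the same library. MTCO1P12 was at 2.65% to 3.39% of MT-CO1, and MTND2P28 at 5.97% to 6.56% of MT-ND2. Each of the 3 copies was lowest in untreated replicate 2, as was its parent gene. MTCO1P12 was highest in doxorubicin replicate 2 and MT-CO1 in doxorubicin replicate 1. The log2 fold changes of the copies were between -0.04 and 0.06. Adding all copies to the mitochondrial counts changed the difference in share to -0.556 percentage points.

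Nuclear genes were taken as 10 lists, of which 6 hold genes that copy, transcribe, process or translate the mitochondrial genome and 4 hold nuclear subunits of the complexes. Of 234 genes in all, 229 were tested with all libraries. Of these 0 were called, against 0% of all genes tested, and 11 had an unadjusted p under 0.05 (edgeR), against 4.39%. The median log2 fold change over all 10 lists was -0.40, beside 0.01 over all genes tested, and -0.29 beside 0.05 without untreated replicate 2. The 9 genes of mitochondrial transcription had a median of -0.10. The polymerase POLRMT had 194.6, 64.1, 185 and 173 CPM, and untreated replicate 2 was lowest, as for most mitochondrial mRNAs. TFAM, which packages the genome and starts transcription, had 53.2, 90.5, 45.9 and 58.5 CPM, and was highest in untreated replicate 2. Their log2 fold changes were 0.31 ± 0.55 and -0.62 ± 0.40 (adjusted p = 0.872 and 0.773, edgeR), and that of MTERF3, a regulator of transcription, was 0.36 ± 0.45.

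The 15 genes of replication and the nucleoid had a median of 0.09. POLG, the DNA polymerase, had 147, 292, 146 and 136 CPM, and TWNK, the helicase, had 62.9, 124, 60.7 and 57.3 CPM. For both genes untreated replicate 2 was about double the other libraries, and the treated libraries were slightly below untreated replicate 1. Their log2 fold changes were -0.79 ± 0.41 and -0.81 ± 0.43 with all libraries and -0.21 and -0.24 without untreated replicate 2 (adjusted p of at least 0.630 in the latter fit, edgeR).

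Of 26 genes of RNA processing and stability, 17 were below 0 and 9 above (median -0.28). ELAC2, which cuts the 3′ ends of the tRNAs out of the precursor, had 281.6, 270.2, 204.7 and 178 CPM, and both treated libraries were below both untreated ones. Its log2 fold change was -0.68 ± 0.29 (adjusted p = 0.773, edgeR) with all libraries. The value was -0.70 without untreated replicate 2, a fit with a lone untreated library. ELAC2 is named because it was among the 2 genes of this list with the smallest p. HSD17B10, a subunit of the enzyme that cuts the 5′ ends, had 337, 398, 270.0 and 217 CPM, in the same order of groups (adjusted p = 0.773, and 0.0622 without untreated replicate 2). LRPPRC, which binds and stabilises the mitochondrial mRNAs, had 226, 165, 203 and 268 CPM and a log2 fold change of 0.11 ± 0.32.

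The translation machinery was mostly on the lower side. Of 79 mitochondrial ribosomal proteins tested, 68 had a log2 fold change below 0 and 11 above, with a median of -0.45, and 5 had an unadjusted p under 0.05, against 4.39% of all genes. MRPS12 had 116, 245, 79.9 and 61.4 CPM (log2 fold change -1.50 ± 0.46, adjusted p = 0.773, edgeR), and MRPS24 had at most 3.88 CPM in any library. Without untreated replicate 2, 73 of 79 were below 0 (median -0.37), beside a median of 0.05 over all genes tested. With library size alone in that fit, 69 of 79 were below 0 (median -0.22), beside 0.20 over all genes. Without untreated replicate 2 and with TMM factors, MRPS12 fell by 0.86. MRPL4, MRPL14 and MRPL20, which were named after their values were seen, fell by 0.73, 0.72 and 0.71. None of these was past the 2-fold limit of a call. For MRPL4 and MRPL20 both treated libraries were below both untreated ones in CPM. For MRPL14 the library left out (70.4 CPM) lay between doxorubicin replicate 1 (78.5 CPM) and doxorubicin replicate 2 (61.8 CPM). The fall of MRPL14 thus rests on untreated replicate 1 alone (104.8 CPM), and its log2 fold change with all libraries was -0.47.

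The translation factors (14 genes) had a median of -0.10, and TUFM, the elongation factor that brings tRNAs to the ribosome, had 536, 767, 410.1 and 363 CPM, with both treated libraries lowest (log2 fold change -0.91 ± 0.31, adjusted p = 0.773, edgeR). OXA1L, the membrane insertase of mitochondrial products, was at -0.44 ± 0.30. The aminoacyl-tRNA synthetases, which charge the tRNAs, had 11 of 16 genes above 0 (median 0.10), but 13 of 17 were below 0 without untreated replicate 2 (median -0.38). MARS2 had a log2 fold change of -0.90 ± 0.38 (adjusted p = 0.773, edgeR). VARS2 had 0.221, 0.208, 0.117 and 3.01 CPM, so doxorubicin replicate 2 alone was high. It did not pass the filter with all libraries. Without untreated replicate 2 it passed through doxorubicin replicate 2 alone, so its log2 fold change of 2.55 in that fit rests on that library. It was named after its values were seen, as was ATAD3A, a nucleoid protein that fell by 0.88 ± 0.22 in the same fit. That fall rests on untreated replicate 1 alone (226 CPM). The ATAD3A level of untreated replicate 2 (128 CPM) lay between doxorubicin replicate 1 (147 CPM) and doxorubicin replicate 2 (124 CPM). With all libraries, the log2 fold change of ATAD3A was -0.54.

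The nuclear subunits of the complexes were set beside the mitochondrial ones. For complex I, 32 of 35 nuclear subunits tested were below 0 (median -0.50), and for complex III 8 of 9 (-0.57). For complex IV it was 11 of 11 (-0.47) and for complex V 15 of 15 (-0.48). Over all genes tested, 50.76% were above 0 (median 0.01). Of these subunits 0 were called, where the background was 0% of all genes tested. With untreated replicate 2 left out, these medians were -0.27, -0.30, -0.07 and -0.36, beside 0.05 over all genes tested. In that fit 30 of 35, 8 of 9, 7 of 11 and 14 of 15 were below 0, where 54.28% of all genes were above 0. With library size alone in that fit, complex IV had a median of 0.08, with 8 of 11 above 0. Over all genes the median was then 0.20, with 66.74% above 0. The genes with the smallest p were NDUFB9 (-0.87 ± 0.37) and NDUFA3 (-1.39 ± 0.61), UQCRC1 (-0.83 ± 0.33) and CYC1 (-0.72 ± 0.28), COX6B1 (-0.84 ± 0.38) and COX7C (-0.59 ± 0.32), and ATP5F1B (-0.79 ± 0.30) and ATP5MC1 (-0.88 ± 0.33). All of these had an adjusted p of 0.773 (edgeR), which was also the smallest over all genes tested.

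Summed over a complex, the nuclear subunits of complex V took 0.400% and 0.515% of the untreated libraries, and 0.341% and 0.315% of the treated ones. Those of complex I took 0.337% and 0.484% against 0.331% and 0.285%, and those of complex III 0.163% and 0.240% against 0.141% and 0.134%. In these 3 complexes both treated libraries were below both untreated ones (exact permutation test, p = 0.333 each, the smallest possible). In complex IV the sums were 0.147% and 0.241% against 0.157% and 0.144%, and the groups overlapped. The mitochondrial subunits of the same complexes overlapped between the groups in all 4.

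The ratio of mitochondrial to nuclear subunit counts was lowest in untreated replicate 2 for every complex. For complex I it was 5.62, 2.73, 5.16 and 6.42 in the order used above, and for complex IV 11.99, 5.31, 10.7 and 11.0. For complex III it was 1.88, 0.530, 1.79 and 1.85, and untreated replicate 1 was again close to the treated libraries. For complex V it was 0.923, 0.315, 0.985 and 0.977, the only complex in which the treated libraries were above both untreated ones (exact permutation test, p = 0.333).

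**Figure D5:**
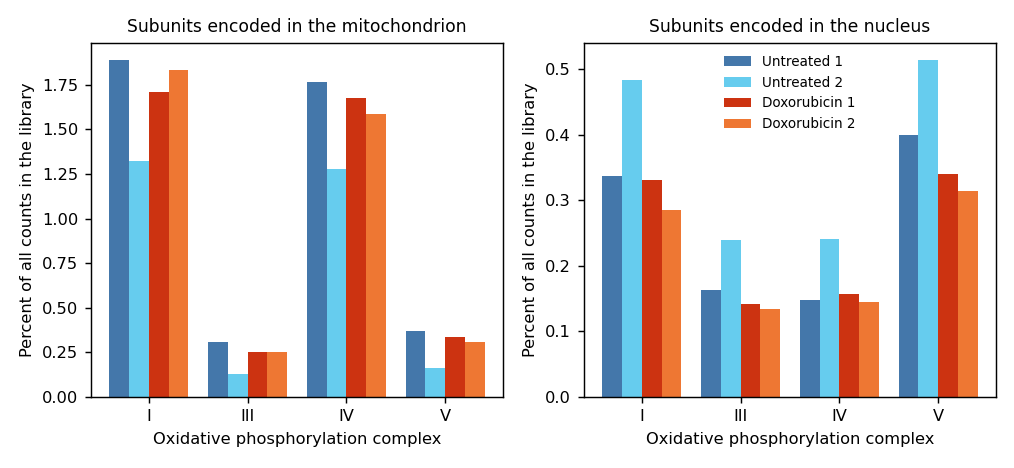
Bars give the percent of all counts of each library on the mitochondrial (left) and nuclear (right) subunits of complexes I, III, IV and V, with an axis of its own for each panel. Untreated replicate 2 is the lowest bar of every group on the left, for example 0.162% for complex V, and the highest on the right, where it is 0.515% for complex V.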

How the data were processed

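The authors deposited the reads counted on each gene of each library as raw counts, without normalization. Per the labels and the methods, HISAT2 mapped the reads to hg38 and HTSeq counted them, and the file headers name GENCODE release 31. Versions and the strand setting are not given in the sources used here. All 4 libraries were grouped by their titles, and 0 rows lacked a gene name. Members and gene lists were chosen with earlier results of these data known. Coordinates and sequences come from hg38 and GENCODE release 44, matched by symbol.

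CPM is the count divided by the library total. Shares were compared by exact permutation tests in SciPy 1.17.1. Genes were filtered by filterByExpr, scaled by TMM and tested over the whole table by the quasi-likelihood test of edgeR 4.0.16 in R 4.3.3, and called at a Benjamini-Hochberg adjusted p under 0.05 with a change of 1 or more on the log2 scale. The edgeR fit alone was tested on simulated counts. The limits on calls applied only at a dispersion far below that of these data, and at higher dispersions only the sign was required. Alternatives were DESeq2 1.42.0, other edgeR tests, RLE factors, library size with and without mitochondrial rows, 2 other filters, a prior count of 2, the replicate block and leaving out each library. The library size fit without untreated replicate 2 was added after seeing the data. Totals of 27572740 to 36272180 counts gave 95% intervals of at most ± 0.0760 percentage points on class shares. Named genes were all mRNAs and rRNAs, the 3 tRNAs and 3 nuclear copies with the highest mean CPM, the 2 genes of each list with the smallest p, and POLRMT, TFAM, TWNK, POLG and LRPPRC. A gene that this rule selects is not reported here.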

Additional observations from a re-analysis of the deposited data

How the results depend on the processing

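The common dispersion was 0.24 with all libraries and 0.0227 without either untreated library. Depth limits the tRNAs, most of which had few counts. Over all genes, the call count of 0 became 90 with DESeq2, 64 with the likelihood ratio test and 46 with the exact test of edgeR, and stayed 0 with other factors and filters. Leaving out a library gave 0 to 8697 (815 without untreated replicate 2, 1075 also with library size alone). The median of the mRNAs ranged from -0.31 to 0.80 on leaving out a library, being -0.31 without untreated replicate 2, and calls among the lists ranged from 0 to 63. The labels of same-numbered libraries share only a number. The correlation of their deviations was 0.0219 over 17479 genes and 0.226 over the mitochondrial rows among them. With 2 libraries per group it cannot decide whether they were paired. The replicate block called 20 genes, 0 of them mitochondrial or in the lists.

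The difference in share of -0.564 points ranged from -0.699 to -0.430 on leaving out a library and was 0.339 without rRNA and tRNA rows. The make-up differences ranged from -0.0540 to 28.2 points for mRNAs, -28.0 to -0.0221 for rRNAs, -0.170 to 0.0761 for tRNAs, and -0.766 to -0.0175 for MT-ND6 among mRNAs. Their low end for mRNAs and high end for tRNAs came without untreated replicate 2. The causes were not tested.

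Among single genes, log2 fold changes of the other sign were given by library size alone for MT-ND2 (0.10), MT-CO3 (0.13) and MT-ND6 (0.0046), by library size outside the mitochondrial genome for MT-ND2 (0.088) and MT-CO3 (0.12), and for MT-CO3 by no filter (0.0043) and the replicate block (0.087). Leaving out a library gave MT-ND2 -0.23 to 0.22, MT-CO1 -0.11 to 0.41, MT-ATP8 -0.32 to 0.80, MT-ATP6 -0.34 to 0.91, MT-CO3 -0.52 to 0.82, MT-ND3 -0.13 to 1.02, MT-ND4L -0.17 to 1.04, MT-ND4 -0.21 to 1.00, MT-ND5 -0.31 to 0.037, MT-ND6 -0.28 to 0.072 and MT-CYB -0.43 to 0.90. Library size alone without untreated replicate 2 gave MT-ATP8 -0.17, MT-ATP6 -0.20, MT-ND4L -0.020, MT-ND4 -0.058 and MT-CYB -0.29. MT-ND1 (-0.74 to -0.18), MT-CO2 (-0.41 to -0.22), MT-RNR1 (-2.09 to -0.34) and MT-RNR2 (-1.39 to -0.09) kept their sign.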
